A study of Rattus norvegicus with 52 samples.

Results

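The *Id* family of the rat, *Id1*, *Id2*, *Id3* and *Id4*, was followed through RNA-seq of sorted mammary cells. Its members were chosen by symbol, and all 4 were among the 17356 genes of the count tables. The study asked what loss of *Cdkn1b*, the gene of the cell cycle inhibitor p27, does to the mammary cells of the ACI rat, a strain prone to estrogen-induced mammary tumors. At 9 weeks, 16 libraries came from virgin *Cdkn1b*+/+ (WT) and *Cdkn1b*-/- (KO) ACI females, 2 per genotype for each of 4 gates. Per the paper, basal/myoepithelial cells were Cd24+ Cd29high and all luminal gates Cd24+ Cd29low. Mature luminal cells were negative for both Cd49b and PNA, and luminal progenitors (LP) were PNA+ or Cd49b+. Basal and luminal cells of both genotypes were also sequenced at 4 weeks (11 libraries) and 6 weeks (9 libraries). The ages are those of the age labels. The titles of these rats carry numbers of their own, 3.4 for 1 WT rat and 4 for the other rats labelled 4 weeks, and 5.3 for 1 KO rat and 5.9 for the other rats labelled 6 weeks, which may be finer ages. A further 12 libraries held basal and luminal cells of ACI and Brown Norway (BN) females given a control or a 17β-estradiol (E2) implant, with 2 libraries per cell type and treatment in ACI and 1 in BN. Each BN title carries 2 animal numbers, so a BN library may be a pool of 2 rats. The titles of the luminal libraries of this experiment name CD49b and PNA, the markers of LP, and those of 4 and 6 weeks do not. The luminal gates may thus differ between experiments. The KO rats carried germline CRISPR-Cas9 deletions in *Cdkn1b* made in the Sprague-Dawley strain and backcrossed to ACI. Per the paper, sorted cells came from rats of an early and a late backcross generation. The labels do not give the generation of a library. There were 2 deletion alleles (DEL-32 and DEL-65), and the labels do not say which of them each library carried. The deletion is in every cell of the body, so effects from outside the mammary gland cannot be told apart from effects within the sorted cells. The same holds for remaining Sprague-Dawley sequence, which may lie beyond the flanks of *Cdkn1b* in rats of the early generation.

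Id proteins are helix-loop-helix factors without a DNA-binding region. They pair with the E proteins (*Tcf3*, *Tcf4*, *Tcf12*) and with tissue-specific partners such as *Twist1*, and so keep these from binding DNA at E-boxes. They are well known targets of bone morphogenetic protein (BMP) signaling, in which a ligand binds paired receptors that activate *Smad1*, *Smad5* and *Smad9*. In the mammary gland, *Id4* is known as a gene of basal cells, *Id2* is known to be needed for alveolar development, and *Id1* and *Id3* are strongly expressed in blood vessels.

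*Id2* and *Id4* differed in opposite directions between basal and luminal cells, and the 250 bases before the start of each are shown for that reason, from RefSeq (GRCr8), 5′ to 3′, with E-boxes (CANNTG) in capitals. The *Id2* stretch is chr6:47470996-47471245 and the *Id4* stretch chr17:16598294-16598543, both on the minus strand.
Id2: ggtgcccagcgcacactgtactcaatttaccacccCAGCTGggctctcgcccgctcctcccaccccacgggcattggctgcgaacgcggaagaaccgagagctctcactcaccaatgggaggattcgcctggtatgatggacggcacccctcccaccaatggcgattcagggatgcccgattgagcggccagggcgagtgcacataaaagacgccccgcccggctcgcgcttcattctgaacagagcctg
Id4: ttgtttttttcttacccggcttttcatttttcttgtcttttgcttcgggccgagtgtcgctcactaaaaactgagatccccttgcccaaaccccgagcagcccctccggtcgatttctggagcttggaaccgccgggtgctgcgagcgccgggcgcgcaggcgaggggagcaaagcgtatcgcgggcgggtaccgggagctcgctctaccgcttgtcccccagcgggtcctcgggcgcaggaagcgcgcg

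In these windows an E-box was present once before *Id2*, beginning at position -215 from the start of the gene, and once before *Id1*, beginning at -9, and was found before neither *Id3* nor *Id4*. Of all 33469 promoter windows of this length, 65.5% held one. The GC-rich Smad motif GGCGCC was in none of the 4 windows and in 8.69% of all. The TATA motif TATAAA was present before *Id1*, and in 12.9% of all windows. The motif TGACG was in none of the 4 and in 18.2% of all. Both strands were searched for each motif, and the matches are a description of these letters only. The windows of *Id2* and *Id4* were each 62.8% G and C, against a median of 51.2%.

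Total counts per library were 21545344 to 33859550 in the rats of 9 weeks. They were lower in the younger rats, from 14674040 to 23045345 (4 weeks) and from 7985619 to 16390460 (6 weeks). The E2 libraries held 13659389 to 25280421 counts. *Cdkn1b* itself was at 1.59 to 4.24 counts per 1000000 counts of the library (CPM) in the KO and 6.00 to 18.0 in the WT libraries of 9 weeks, with no overlap. At 4 weeks it was at 4.30 to 15.2 CPM in KO and 15.6 to 43.9 CPM in WT, again with no overlap. At 6 weeks it was at 12.3 and 30.2 CPM in KO and 31.4 and 46.3 CPM in WT luminal cells, with no overlap. In basal cells of 6 weeks it was at 11.1 and 13.1 CPM in KO and at 21.5, 22.5 and 3.13 CPM in WT. The 3.13 CPM, below every KO library of that age, went against the label of the library labelled WT basal replicate 3, which was also the shallowest. Since small deletions can leave the mRNA in place, *Cdkn1b* mRNA checks the labels only in part. The basal and luminal labels held against their markers at 9 weeks, where 10 of 10 basal markers were higher and 9 of 9 luminal markers lower in basal than in mature luminal cells. The label mature luminal was not borne out by its markers: 3 of 7 hormone-sensing markers were higher in LP than in the libraries labelled mature luminal and none was lower. Several libraries stood apart. The KO luminal library replicate 2 of 6 weeks held 8550 CPM of luminal markers (the other 3 held 20100 to 26900), with 7040 CPM of adipocyte and 1510 CPM of endothelial markers. The ACI E2 basal library replicate 1 held 3090 CPM of basal markers and 3430 CPM of pericyte markers.

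*Id4* was the member that most separated the cell types at 9 weeks. Its level in basal cells was 326 and 259 CPM in WT and 161 and 148 CPM in KO. In the 8 LP libraries it ran from 3.52 to 63.0 CPM and in mature luminal cells it was 13.8 and 10.3 CPM in WT and 5.08 and 6.05 CPM in KO. All basal libraries were above all LP and all mature luminal libraries, and LP and mature luminal libraries overlapped. Basal and mature luminal libraries did not overlap, in either direction, for 28.1% of all genes. Against mature luminal cells, *Id4* was 23.7-fold higher in basal cells (log2 fold change 4.57 ± 0.63 (SE), adjusted p = 9.23e-05, from the quasi-likelihood fit of edgeR, adjusted over all genes tested by the Benjamini-Hochberg method, as for all adjusted p-values here) and 3.38-fold higher in LP (1.76 ± 0.51, adjusted p = 0.0251). The LP call was lost when any 1 of the 4 mature luminal libraries was left out (adjusted p = 0.0651 to 0.0873), and without the KO Cd49b+ replicate 2 the value was 1.18 (adjusted p = 0.00909). All 9 endothelial and 4 of 6 pericyte markers were also higher in LP than in mature luminal cells. The Cd49b+ libraries with 56.0, 60.4 and 63.0 CPM of *Id4* held 1280, 1330 and 3800 CPM of basal markers. The other LP libraries, with 3.52 to 43.9 CPM of *Id4*, held 383 to 658 CPM, and the mature luminal libraries 322 to 577 CPM. The part of endothelial, pericyte and basal RNA in the *Id4* value was not tested. The background was high, since 38.7% of 12809 genes tested differed between basal and mature luminal cells and 23.4% between LP and mature luminal cells. Because these are bulk libraries, fewer cells of a type and less RNA per cell cannot be told apart, and where nothing shows that libraries came from separate animals the p-values measure the spread between these libraries.

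*Id2* had the opposite pattern. It was at 58.8 and 81.9 CPM in WT and 35.2 and 45.9 CPM in KO basal cells, at 117 to 475 CPM in LP, and at 467 and 548 CPM in WT and 116 and 224 CPM in KO mature luminal cells. Every basal library lay below every luminal one, and 28.1% of all genes did not overlap between basal and mature luminal libraries. *Id2* was 5.96-fold lower in basal than in mature luminal cells (log2 fold change -2.58 ± 0.27, adjusted p = 1.55e-05). LP and mature luminal cells overlapped in *Id2* and did not differ beyond their spread (-0.31 ± 0.22, adjusted p = 0.324).

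*Id3* lay with *Id4*, and *Id1* with neither. *Id3* was at 166 and 246 CPM in WT and 166 and 194 CPM in KO basal cells, at 24.3 to 223 CPM in LP, and at 24.2 to 92.4 CPM in mature luminal cells. Basal and mature luminal cells did not overlap, as for 28.1% of all genes. *Id3* was 3.18-fold higher in basal cells (log2 fold change 1.67 ± 0.51, adjusted p = 0.0203). That call was lost without the KO mature luminal replicate 1 (adjusted p = 0.0704), the WT basal replicate 2 (0.0528) or the WT mature luminal replicate 1 (0.0694). *Id1* was at 45.5 to 71.1 CPM in basal, 23.2 to 180 CPM in LP and 17.8 to 82.7 CPM in mature luminal cells, and the 3 ranges overlapped. *Id1* passed the test neither in basal (log2 fold change -0.27 ± 0.48, adjusted p = 0.691) nor in LP (0.62 ± 0.43, adjusted p = 0.308) against mature luminal cells. The numbers in the titles pair the libraries within a genotype, and with genotype and number as a block *Id3* was also called higher in LP than in mature luminal cells (0.81, adjusted p = 0.0434), while the count of all genes called rose from 2999 to 5056.

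**Figure D1:**
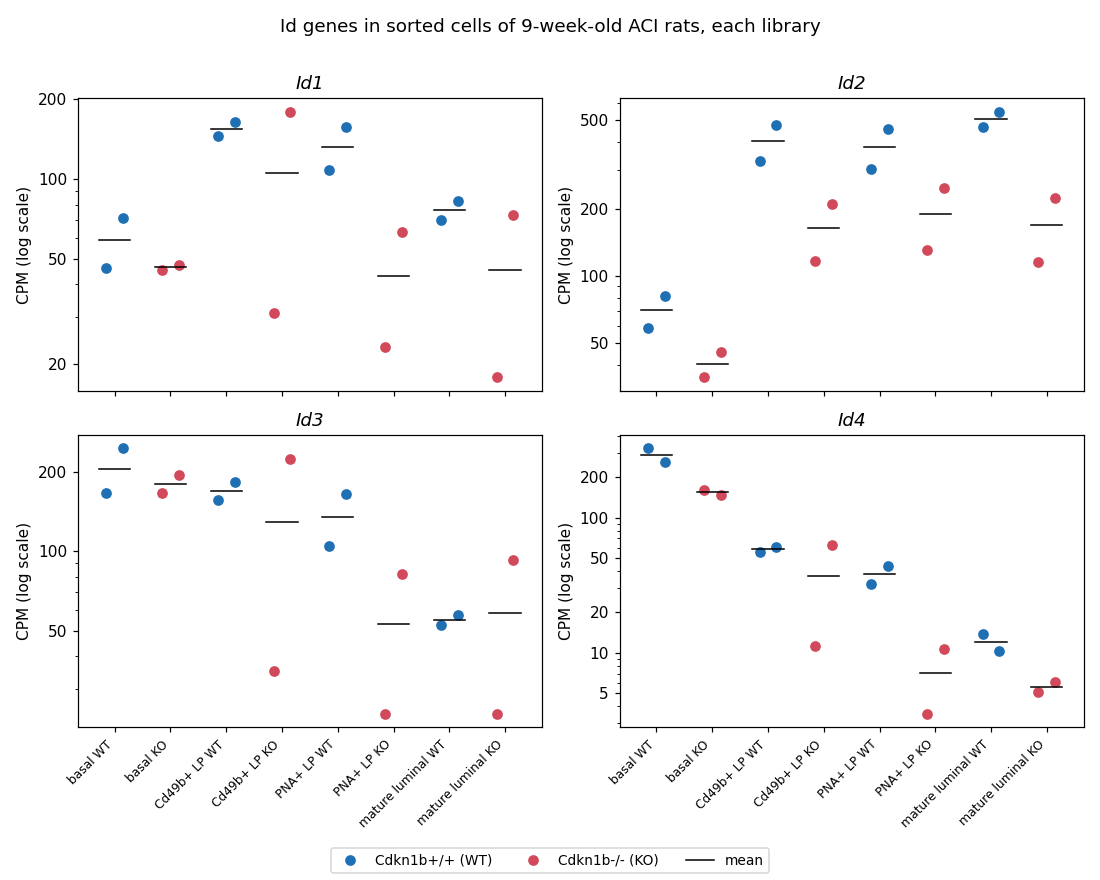
Levels of the 4 *Id* genes at 9 weeks in CPM on log axes, 1 point per library, with the mean of each group of 2 as a line, WT in blue and KO in red. *Id4* is highest in basal cells (148 to 326 CPM), and its levels in LP (3.52 to 63.0 CPM) and mature luminal cells (5.08 to 13.8 CPM) overlap. *Id2* is lowest in basal cells (35.2 to 81.9 CPM).

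*Id4* and *Id3* were also higher, and *Id2* lower, in basal than in luminal cells at 4 weeks. At 4 weeks, *Id4* was at 443 to 626 CPM in the 5 basal and 35.6 to 106 CPM in the 6 luminal libraries, with no overlap (log2 fold change 3.31 ± 0.33, adjusted p = 5.74e-06). *Id3* was at 204 to 727 CPM in basal and 38.4 to 111 CPM in luminal cells, again with no overlap (2.72 ± 0.48, adjusted p = 0.000643). Such a separation, in either direction, held for 23.2% of all genes. *Id2* was lower in basal cells (61.0 to 180 against 168 to 451 CPM, -1.14 ± 0.41, adjusted p = 0.0492), with an overlap of the 2 groups. The *Id2* call at 4 weeks was lost in 8 of the 11 fits that left out 1 library, with adjusted p up to 0.148; with the animal as a block, which the titles identify, its adjusted p was 0.0023. *Id1* did not differ (-0.01 ± 0.52, adjusted p = 0.991), and 35.1% of all genes tested did.

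At 6 weeks, only *Id4* passed the test between basal and luminal cells among the 4 members, at 170 to 395 CPM against 14.1 to 47.6 CPM (log2 fold change 3.33 ± 0.38, adjusted p = 0.00183). *Id3* ran from 61.1 to 266 CPM in basal and from 17.4 to 162 CPM in luminal cells (1.58 ± 0.42, adjusted p = 0.0627), and its adjusted p was 0.033 without KO luminal replicate 1 and 0.0093 without replicate 2, the library described above. *Id1* was at 20.2 to 59.6 CPM in luminal cells and at 0 to 8.30 CPM in basal cells, with no overlap. The cell types did not overlap, in either direction, for 9.52% of all genes, and *Id1* did not pass the test (-2.50 ± 1.06, adjusted p = 0.21). The library labelled WT basal replicate 3 had 0 *Id1* counts, which allows a level of up to 0.376 CPM. *Id2* had an adjusted p of 0.134 (-1.39 ± 0.48), of 0.0317 without that library, and of 0.0449 with the animal as a block. The adjusted p of *Id4* was 0.00278 without the same library. Of all genes tested 5.65% were called, and 352 in place of 673 genes with the block.

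In the E2 experiment no *Id* gene passed the test between basal and luminal cells, against 1.66% of all genes. *Id4* was at 396 to 988 CPM in the 6 basal and 8.23 to 433 CPM in the 6 luminal libraries (log2 fold change 2.02 ± 0.67, adjusted p = 0.162). *Id3* (1.58 ± 0.63, adjusted p = 0.246) and *Id2* (-0.86 ± 0.39, adjusted p = 0.303) had the signs seen elsewhere, and *Id1* was near 0 (0.01 ± 0.77, adjusted p = 0.998). At an unadjusted p under 0.05 the count was 3 of 4, against 2132 of 13335 genes tested. DESeq2 called 1 member, *Id4*, among 1806 genes. Without the ACI E2 basal replicate 1 the adjusted p of *Id4* was 0.168. In this experiment 3 of 10 basal markers and 4 of 9 luminal markers passed the same test, and endothelial markers reached 791 CPM in a basal library; their part in the *Id* values was not tested.

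**Figure D2:**
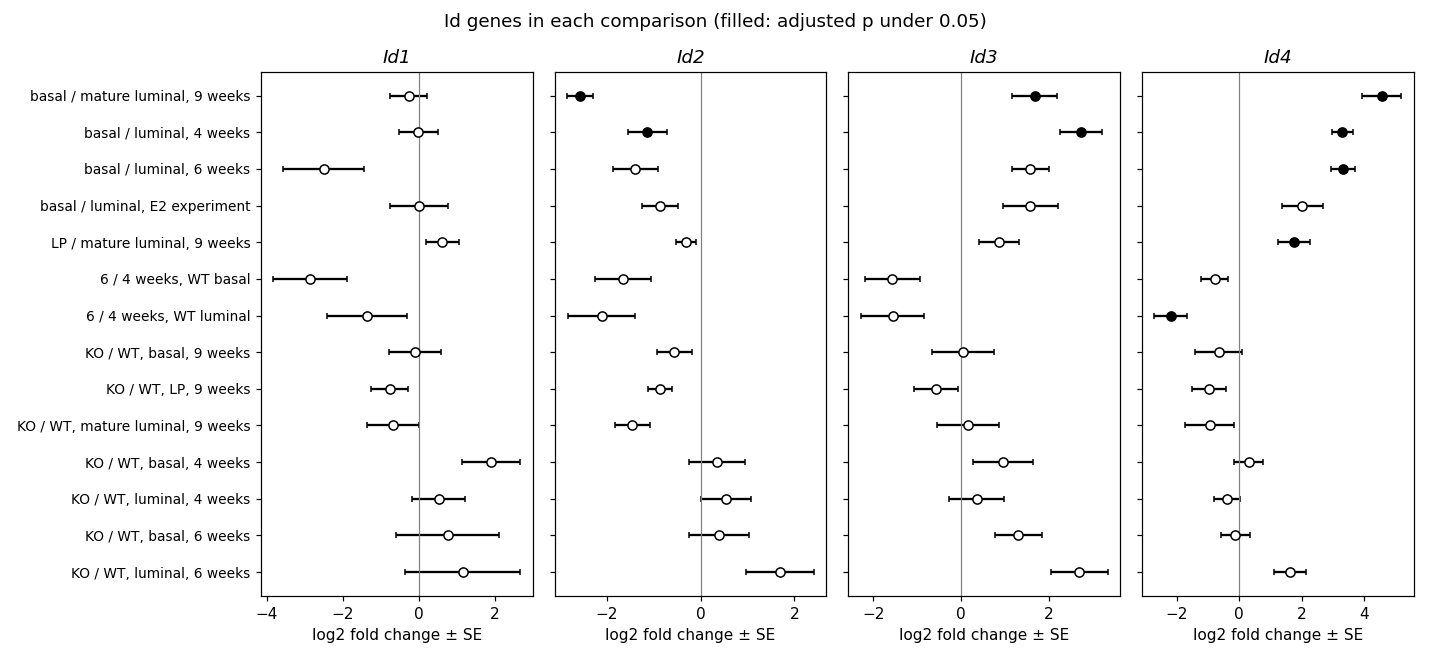
Log2 fold changes of the *Id* genes (x axis, with SE bars) in 14 comparisons (rows), filled where the adjusted p is under 0.05. *Id4* lies to the right in every basal against luminal row, from 2.02 to 4.57, *Id2* to the left, from -0.86 to -2.58, and no KO against WT value is filled.

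The balance of *Id4* to *Id2* within a library does not depend on how libraries are scaled. On the log2 scale of the count ratio it lay between 0.67 and 4.09 in the 20 basal libraries and between -5.73 and 0.38 in the 28 luminal libraries of all experiments, so that the groups did not overlap. This measure was chosen with its values in view, from 2 members that differed in opposite directions between these cell types, so the choice itself favors a separation. The share of other gene pairs that separate likewise was not determined, and the balance is given as a description. The closest pair was the ACI E2 replicate 1, with 0.67 in basal and 0.38 in luminal cells. At 9 weeks the medians were 1.94 in basal and -3.94 in luminal gates. *Id4* alone overlapped over all experiments, because the lowest basal level (148 CPM in a KO library of 9 weeks) was below the highest luminal level (433 CPM in the BN control).

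At 9 weeks no *Id* gene passed the test for genotype in any gate, although *Id2* was lower in every KO than in every WT library of the same cell type. In LP, *Id2* was at 303, 330, 459 and 475 CPM in WT and at 117, 131, 212 and 248 CPM in KO libraries. All KO libraries lay below all WT libraries, as was so, in either direction, for 17.6% of all genes. The log2 fold change was -0.86 ± 0.26 (adjusted p = 0.0919), against 3.4% of 12809 genes called. DESeq2 called it (adjusted p = 0.0345), as did the fit on library totals (0.036). These fits take the PNA+ and Cd49b+ libraries of 1 number as independent, although they deviated together (r = 0.629 in KO and 0.803 in WT). With both gates summed per number, *Id2* was at -0.89 with an adjusted p of 0.714. The paper, which used DESeq2 with its own thresholds, names *Id2* in a hedgehog network that was lower in KO LP. In mature luminal cells *Id2* was at 467 and 548 CPM in WT and 116 and 224 CPM in KO, without overlap, as for 30.2% of all genes (-1.46 ± 0.37, adjusted p = 0.246, with 0.133% of genes called). DESeq2 gave 0.0149. In basal cells it was at 58.8 and 81.9 CPM against 35.2 and 45.9 CPM (-0.56 ± 0.37, adjusted p = 0.7, with 0.0546% of genes called). The difference in the genotype effect on *Id2* between LP and mature luminal cells was not past the test (0.60 ± 0.45, adjusted p = 1).

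Other gene groups differed between the same libraries. Immediate early genes, which respond to cell stress and dissociation, had a summed level over 16 genes of 23700 to 33500 CPM in KO and 38300 to 43700 CPM in WT LP, and of 26000 and 33700 CPM against 44700 and 45800 CPM in mature luminal cells. In basal cells the sums overlapped (19000 and 27600 CPM in KO, 24200 and 27600 CPM in WT). In LP, 2 of the 16, *Fosb* and *Klf2*, fell (log2 fold changes -0.81 ± 0.20 and -1.09 ± 0.20) and none rose. Progenitor and alveolar markers summed to 102000 to 181000 CPM in KO and 21000 to 61500 CPM in WT LP, to 105000 and 153000 against 81700 and 39100 CPM in mature luminal cells, and to 23400 and 28300 against 6770 and 4490 CPM in basal cells. Of these 9 markers only the milk protein gene *Wap* was called, and it was higher in KO in each cell type (log2 fold change 3.97 ± 0.39 in LP). Hormone-sensing markers summed to 194 to 308 CPM in KO and 471 to 772 CPM in WT LP, and 3 of 7, *Cited1* (-2.28 ± 0.46), *Foxa1* (-1.34 ± 0.29) and *Prlr* (-1.19 ± 0.27), fell. The part of these groups in the *Id2* values was not tested.

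*Id1*, *Id3* and *Id4* were lower in 3 of the 4 KO LP libraries than in every WT LP library, and the fourth was the highest of all 8. *Id1* was at 108, 145, 157 and 165 CPM in WT, and at 23.2, 31.2, 63.0 and 180 CPM in KO LP. The groups overlapped through 1 library, the KO Cd49b+ replicate 2, with 180 CPM. *Id4* had 32.2 to 60.4 CPM in WT and 3.52, 10.7, 11.3 and, in the same library, 63.0 CPM in KO LP. The log2 fold changes were -0.77 ± 0.48 for *Id1* (adjusted p = 0.428), -0.57 ± 0.50 for *Id3* (adjusted p = 0.591) and -0.98 ± 0.54 for *Id4* (adjusted p = 0.368). Without that library they were -1.50 for *Id1* (adjusted p = 0.0338), -1.32 for *Id3* (0.0681) and -2.12 for *Id4* (0.00309). Each of the 16 libraries was left out in turn, and this one is singled out after its values were seen. Over those fits, 157 to 1209 genes were called. PNA+ and Cd49b+ libraries of 1 number were still taken as independent.

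Summed over 9 endothelial markers, the KO LP libraries held 136, 267, 307 and 1250 CPM and the WT LP libraries 523 to 1050 CPM, and the 1250 CPM were those of the KO Cd49b+ replicate 2. Ordered by this sum, the 8 LP libraries had *Id1* at 23.2, 31.2, 63.0, 108, 145, 157, 165 and 180 CPM, the same order. *Id3* was in the same order as well, from 24.3 to 223 CPM. *Pecam1*, named after its values were seen because it encodes the endothelial surface protein Cd31 stained in the sort, was at 218 CPM in the KO Cd49b+ replicate 2 and at 22.3 to 183 CPM in the other 7. In *Id2* that library, at 212 CPM, remained among the KO libraries. None of the 9 endothelial markers passed the test for genotype, while all 9 were higher in LP than in mature luminal cells. In mature luminal cells the sum was 79.0 to 144 CPM. The KO Cd49b+ replicate 2 also held 3800 CPM of basal markers, against 383 to 1330 CPM in the other 7 LP libraries. The part of endothelial and basal RNA in the levels of *Id1*, *Id3* and *Id4* was not tested.

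**Figure D3:**
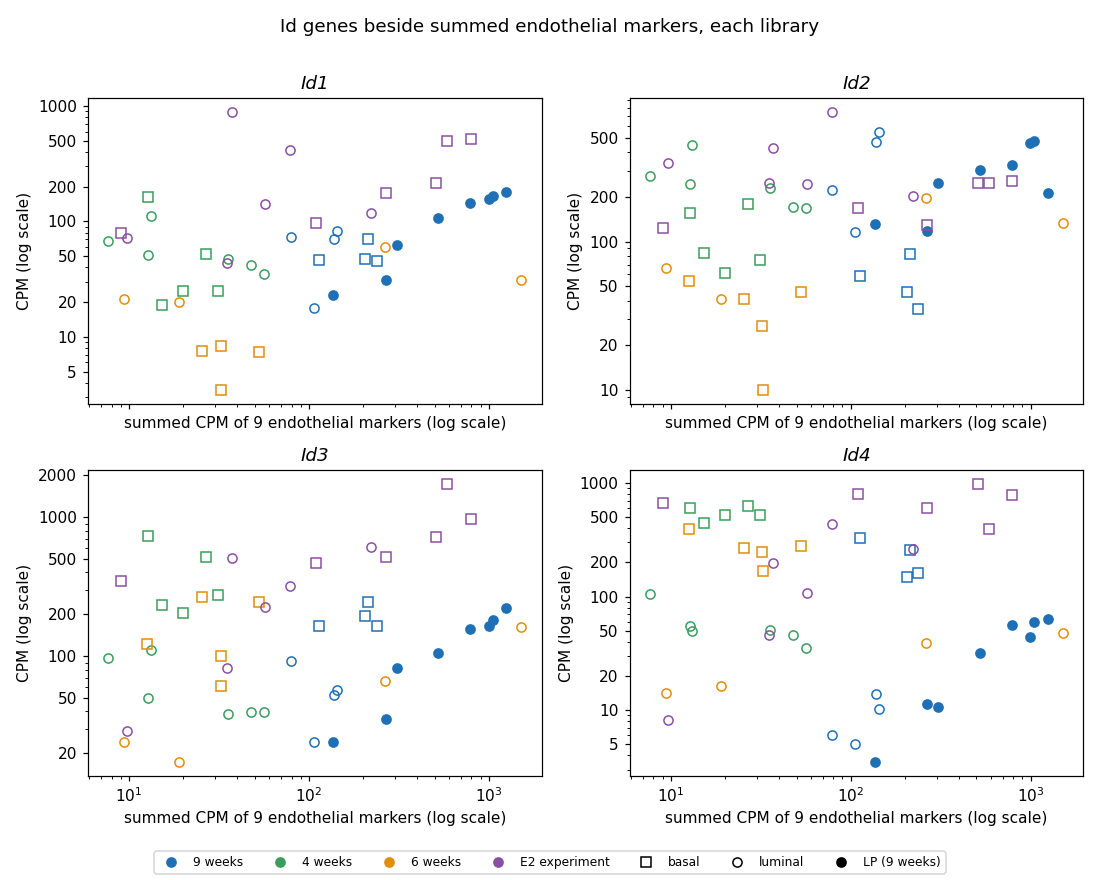
Level of each *Id* gene (y axis, CPM) against the summed CPM of 9 endothelial markers (x axis), both on log axes, with 1 symbol per library (squares basal, circles luminal, filled circles LP, color by experiment); the library without *Id1* counts is not drawn in the *Id1* panel. In LP, *Id1* rises from 23.2 to 180 CPM as the sum goes from 136 to 1250 CPM, whereas a KO basal library of 4 weeks has 163 CPM at a sum of 12.8 CPM.

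In basal cells of 9 weeks, *Id4* was at 148 and 161 CPM in KO and 259 and 326 CPM in WT, which did not overlap, as for 41.2% of all genes with 2 libraries a group (log2 fold change -0.66 ± 0.76, adjusted p = 0.849). *Id1* (-0.10 ± 0.68) and *Id3* (0.04 ± 0.71) overlapped between genotypes there. In mature luminal cells *Id1* (-0.67 ± 0.68), *Id3* (0.16 ± 0.71) and *Id4* (-0.95 ± 0.79) did not pass the test either, with adjusted p from 0.951 to 0.998.

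At 4 weeks no *Id* gene and no other gene passed the test for genotype, with 0.0% of 12082 genes called in basal and in luminal cells. At an unadjusted p under 0.05 there were 310 genes in basal and 435 in luminal cells, and DESeq2 called 1 and 0. *Id1* was at 163 and 25.0 CPM in KO and at 52.3, 25.2 and 19.0 CPM in WT basal cells (log2 fold change 1.91 ± 0.77, adjusted p = 1). Its difference rested on the KO replicate 1: without that library the value was -0.43. In luminal cells the 4 members ranged from -0.39 (*Id4*) to 0.54 (*Id2*), and all 4 overlapped between genotypes.

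In luminal cells of 6 weeks no *Id* gene passed the test for genotype. The values of all 4 were above 0 and the genotypes did not overlap, as for 49% of all genes. *Id3* was at 66.6 and 162 CPM in KO and 24.1 and 17.4 CPM in WT (log2 fold change 2.69 ± 0.64, adjusted p = 0.142). *Id2* was at 196 and 133 CPM against 66.2 and 40.8 CPM (1.70 ± 0.72, adjusted p = 0.282). *Id4* was at 39.1 and 47.6 CPM against 14.1 and 16.5 CPM (1.64 ± 0.51, adjusted p = 0.19), and *Id1* at 59.6 and 31.2 CPM against 21.4 and 20.2 CPM (1.16 ± 1.52, adjusted p = 0.724).

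With edgeR, 0.0% of 11921 genes were called for genotype in luminal and in basal cells of 6 weeks, 1961 and 1072 had an unadjusted p under 0.05, and DESeq2 called 1332 and 330. DESeq2 called *Id3* (adjusted p = 0.00291) and *Id4* (0.0406) in luminal cells. Endothelial markers summed to 263 and 1510 CPM in the KO and to 9.40 and 19.0 CPM in the WT luminal libraries, and their part in these differences was not tested. Without the KO replicate 2, which holds the 1510 CPM, the log2 fold changes were 1.52 for *Id3* (adjusted p = 0.38) and 1.18 for *Id4* (0.537). Without the KO replicate 1 they were 3.33 for *Id3* (adjusted p = 0.00491) and 1.99 for *Id4* (0.0314). In basal cells *Id3* was at 245 and 266 CPM in KO and 61.1, 101 and 123 CPM in WT (1.31 ± 0.54, adjusted p = 0.53), with no overlap, as for 40.1% of all genes, and without the library labelled WT basal replicate 3 the value was 1.53 (adjusted p = 0.497). The same KO basal libraries held more basal markers (14700 and 18500 against 6670 to 9630 CPM), fibroblast markers (3340 and 2360 against 71.2 to 574 CPM), Schwann cell markers (3580 and 2310 against 375 to 539 CPM) and pericyte markers (51.6 and 57.3 against 4.76 to 25.0 CPM). The part of these cells in the *Id3* values was not tested.

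Between 4 and 6 weeks, *Id4* passed the test in WT luminal cells and no member did in WT basal cells. The levels of all 4 members at 6 weeks lay below those at 4 weeks without overlap, where the 2 ages did not overlap, in either direction, for 36.2% of all genes in basal and 53% in luminal cells. In basal cells *Id1* was at 52.3, 25.2 and 19.0 CPM at 4 weeks and at 3.45, 8.30 and 0 CPM at 6 weeks (log2 fold change -2.86 ± 0.97, adjusted p = 0.0637). *Id2* went from 61.0 to 180 CPM to 9.94 to 54.1 CPM (-1.66 ± 0.60, adjusted p = 0.0824), *Id3* from 204 to 516 CPM to 61.1 to 123 CPM (-1.57 ± 0.63, adjusted p = 0.11), and *Id4* from 443 to 626 CPM to 170 to 395 CPM (-0.79 ± 0.44, adjusted p = 0.251). None was called in basal cells, where 10.5% of 12572 genes were. DESeq2 called *Id1*, *Id2* and *Id3* (adjusted p = 0.00565, 0.0254 and 0.0426). Without the library labelled WT basal replicate 3 of 6 weeks, *Id2* was at -2.57 (adjusted p = 0.02), *Id1* at -2.40 (0.0737), *Id3* at -1.96 (0.0986) and *Id4* at -1.34 (0.0753).

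In luminal cells *Id4* fell, from 106, 50.7 and 46.3 CPM at 4 weeks to 14.1 and 16.5 CPM at 6 weeks (log2 fold change -2.20 ± 0.53, adjusted p = 0.0341), against 3.1% of genes called. The call was lost in 6 of the 20 fits that left out 1 library, with adjusted p up to 0.338, among them all 4 fits without WT luminal replicates 1 or 2 of either age. *Id2* (-2.11 ± 0.71, adjusted p = 0.105), *Id3* (-1.57 ± 0.73, adjusted p = 0.23) and *Id1* (-1.36 ± 1.05, adjusted p = 0.487) were not called.

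The 2 ages were separate sets of libraries of different depth, so age and set cannot be told apart. Immediate early genes summed to 30200 to 36800 CPM at 4 and 8930 to 13100 CPM at 6 weeks in WT basal cells, and 11 of 16 fell. In WT luminal cells the sums were 41100 to 48700 CPM and 15100 to 16700 CPM, and 6 of 16 fell. In WT basal cells the basal markers summed to 17300 to 19400 CPM at 4 and 6670 to 9630 CPM at 6 weeks, where 3 of 10 fell, and the fibroblast markers to 1220 to 6450 CPM and 71.2 to 574 CPM. The part of these groups in the *Id* values was not tested.

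**Figure D4:**
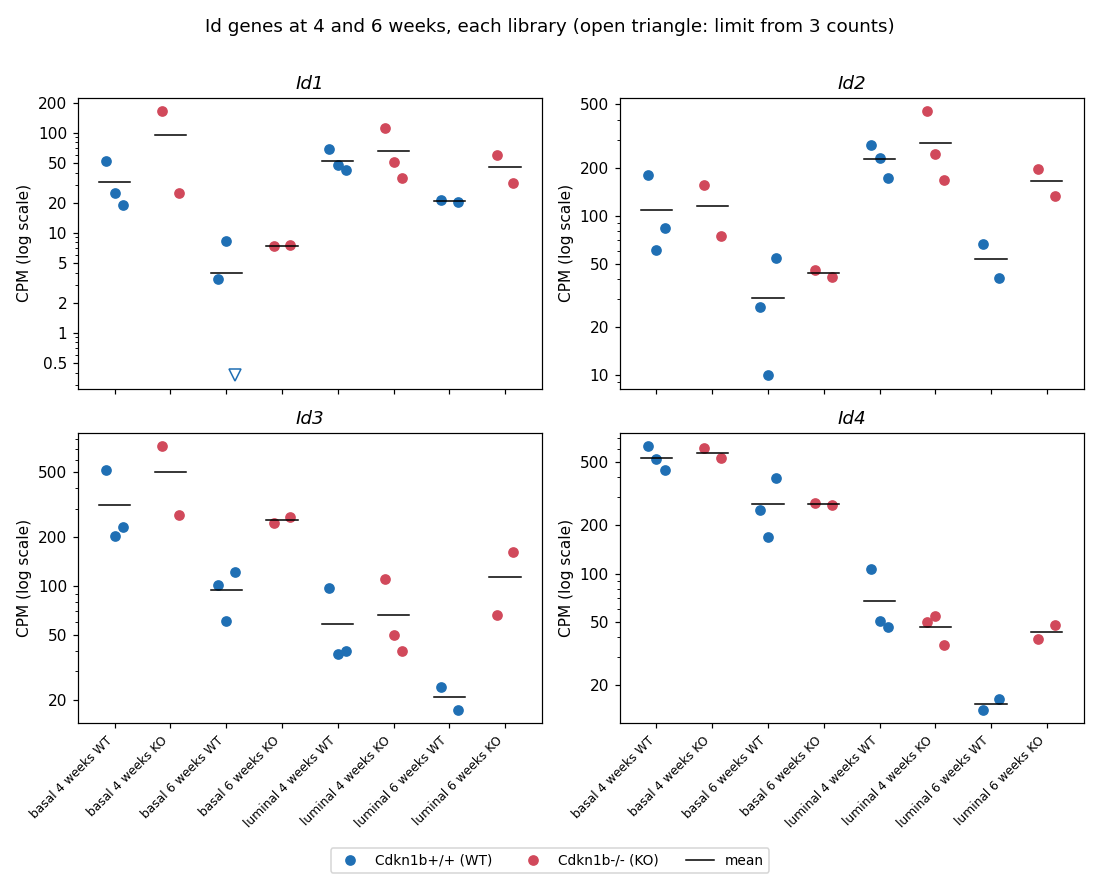
Levels of the *Id* genes at 4 and 6 weeks in CPM on log axes, 1 point per library, mean as a line, WT in blue and KO in red, with an open triangle at the limit of 0.376 CPM for the library without *Id1* counts. WT luminal *Id4* goes from 46.3 to 106 CPM at 4 weeks to 14.1 and 16.5 CPM at 6 weeks, while the KO luminal libraries of 6 weeks stand at 39.1 and 47.6 CPM.

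No *Id* gene passed the test for E2 or for strain. In luminal cells of ACI rats *Id3* was at 81.9 and 226 CPM in control and 607 and 509 CPM in E2-treated rats, and *Id4* at 45.6 and 108 CPM against 265 and 196 CPM. In BN, with 1 library each, *Id3* was at 319 CPM in control and 28.9 CPM with E2, and *Id4* at 433 and 8.23 CPM. Both genes thus had higher levels with E2 in ACI and lower ones in BN. Basal markers in these luminal libraries summed to 115 and 683 CPM in ACI control, 538 and 1950 CPM in ACI E2, 2100 CPM in BN control and 312 CPM in BN E2. The ACI E2 luminal replicate 1 also held 6910 CPM of fibroblast and 732 CPM of pericyte markers, and the part of these cells in the *Id* values was not tested. A test of the difference in the E2 effect (ACI minus BN, log2 scale), added after the values were seen, gave 6.82 ± 0.87 for *Id4*, 4.86 ± 0.90 for *Id3*, 4.62 ± 2.02 for *Id1* and 1.04 ± 0.97 for *Id2* in luminal cells, with adjusted p of 0.853 to 0.927 in edgeR. In basal cells it gave 4.11 ± 1.31 for *Id1*, 2.69 ± 1.28 for *Id3*, 1.21 ± 0.96 for *Id2* and -0.34 ± 0.81 for *Id4*, each with an adjusted p of 1. It called 0 of 12670 genes in luminal and 0 of 12265 in basal cells, and 724 and 384 had an unadjusted p under 0.05. DESeq2 was not run for this difference. The BN groups of 1 library, possibly of pooled rats, were assumed to vary like the ACI groups.

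*Id1* in luminal cells was at 43.8 and 142 CPM in ACI control, 118 and 884 CPM in ACI E2, 413 CPM in BN control and 72.3 CPM in BN E2 libraries. *Id2* was at 247 and 244 CPM in ACI control, 204 and 430 CPM in ACI E2, 746 CPM in BN control and 337 CPM in BN E2 libraries. In basal cells *Id1* was at 97.4 and 214 CPM in ACI control, 497 and 178 CPM in ACI E2, 516 CPM in BN control and 79.1 CPM in BN E2 libraries, and *Id3* reached 1740 CPM in the ACI E2 replicate 1. In luminal cells 0.0% of 12670 genes were called for E2 and 0.0% for strain, with 437 and 511 at an unadjusted p under 0.05 and 130 and 399 by DESeq2. In basal cells 0.0% of 12265 genes were called for E2 and 0.0% for strain, with 178 and 91 at an unadjusted p under 0.05 and 99 and 20 by DESeq2. DESeq2 called no *Id* gene in these 4 tests.

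Several genes of a list of E proteins and of factors that pair with E proteins differed between cell types. Their shares are to be read against those of all genes. In basal against mature luminal cells of 9 weeks, 5 of 9 tested E proteins and partners were higher and 1 lower, where 38.7% of all genes were called, with a median log2 fold change of 1.30 (all genes -0.04). Among those that passed were *Twist1*, a factor of mesenchymal cells (3.43 ± 0.41), *Neurod1*, a neuronal factor (-3.19 ± 1.06), and *Ascl2* (2.44 ± 0.47). At 4 weeks 5 of 10 were higher in basal cells and none lower (35.1% of all genes called), among them *Twist2* (5.39 ± 0.86). In LP against mature luminal cells 3 of 9 were higher and 1 lower (23.4% of all genes called), with *Tcf4* at 1.83 ± 0.30. For genotype no E protein or partner was called in any gate.

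Genes of the BMP pathway are given against the same shares, 38.7% of all genes called at 9 and 35.1% at 4 weeks. Of 6 tested ligands, 3 were higher and 1 lower in basal than in mature luminal cells at 9 weeks, with *Bmp7* at 3.41 ± 0.48 and *Bmp3* at -2.85 ± 0.64 on the log2 scale. Of 8 receptors, 3 were higher and 2 lower. *Bmpr1b*, a type I receptor, was lower (-2.19 ± 0.32), and *Eng* (2.14 ± 0.50), a co-receptor best known from endothelium, and *Acvr1* (1.92 ± 0.30) were higher. Among 3 tested Smads only *Smad5* rose (1.70 ± 0.25). Of 12 inhibitors, 8 were higher and none lower, with a median of 1.91, led by follistatin, *Fst* (5.22 ± 0.75), *Fstl1* (4.62 ± 0.60) and gremlin, *Grem1* (3.66 ± 1.01). At 4 weeks 9 of 12 inhibitors were higher in basal cells and none lower, with *Fst* at 5.69 ± 0.40. Fibroblast markers summed to 626 to 3030 CPM in basal and 111 to 789 CPM in mature luminal libraries of 9 weeks. At 4 weeks their sums were 1220 to 7960 CPM in basal and 37.4 to 430 CPM in luminal libraries. The part of fibroblasts in the values of the inhibitors and of *Twist1* and *Twist2* was not tested.

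For genotype in LP, where 3.4% of all genes were called, 1 of the 8 BMP receptors was called, *Bmpr1b*, which was lower in KO (log2 fold change -1.56 ± 0.30, adjusted p = 0.013), and no ligand, Smad or inhibitor was. None of the 8 genes listed as downstream of Id and E proteins was called for genotype at 9 weeks. Between cell types *Sparc* (3.73 ± 0.57) and the cell cycle inhibitor *Cdkn1c* (2.45 ± 0.42) were higher and the Notch target *Hes1* (-1.31 ± 0.20) lower in basal than in mature luminal cells, and none of the other 5 was called, so that 3 of 8 were called where 38.7% of all genes were. The part of fibroblasts in the *Sparc* value was not tested either. From 4 to 6 weeks *Hes1* fell in WT basal (-2.18 ± 0.41) and luminal cells (-1.88 ± 0.48).

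Over the 16 libraries of 9 weeks, the 3 genes most like each member in log2 CPM were taken from 8793 expressed genes. They share the cell types and libraries with it, so that Pearson's r is given as a description. *Id4* was most like *Fam198b* (r = 0.987), *Jam3* (0.982) and *Cacna2d1* (0.980), with r from 0.816 to 0.909 over the 20 libraries of 4 and 6 weeks and from 0.362 to 0.817 over the 12 of the E2 experiment. *Id2* was most like *Rhov* (r = 0.953), *Hsph1* (0.950) and *Eepd1* (0.945), of which *Hsph1*, a heat shock gene, had r = -0.550 at 4 and 6 weeks. *Id3* was most like *Ciart* (0.956), *Rbm24* (0.953) and *Ch25h* (0.946), and *Ch25h* kept r at 0.906 and 0.655 in the other 2 sets. *Id1* was most like *Ptgs1* (0.931), *Ramp2* (0.858) and *Rapgef3* (0.852), and in *Ramp2*, a receptor component abundant in endothelium, r was 0.752 at 4 and 6 weeks and -0.474 in the E2 experiment.

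**Figure D5:**
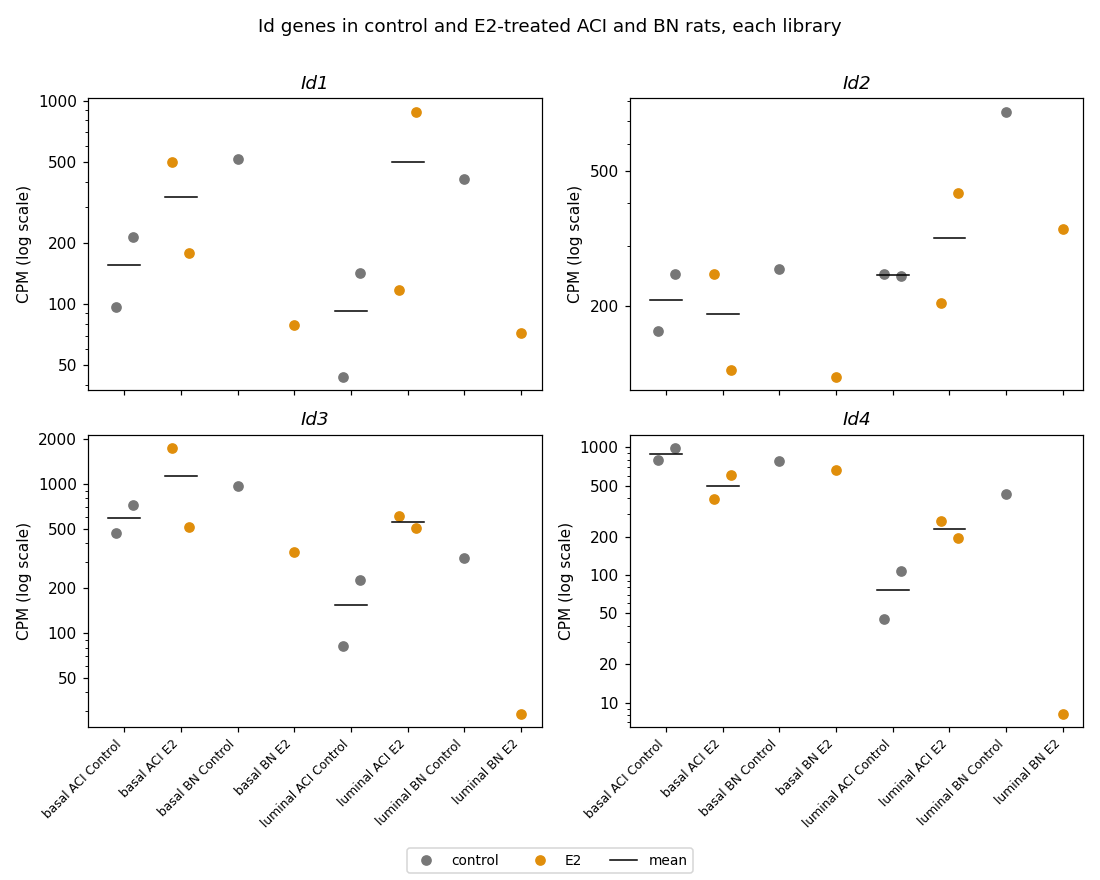
Levels of the *Id* genes in the E2 experiment in CPM on log axes, 1 point per library, control in grey and E2 in orange, with the mean as a line for groups of 2. In luminal cells *Id4* is at 196 and 265 CPM in ACI E2 against 45.6 and 108 CPM in ACI control libraries, and at 8.23 CPM in BN E2 against 433 CPM in BN control.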

How the data were processed

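RNA-seq of sorted mammary cells gave 48 libraries. Per the study's methods and processing notes, the authors aligned reads with STAR 2.5.1b to the rat genome rn6 and counted them per gene with HTSeq. The deposited values are raw counts per gene. Summary entries that name no gene held 47.1% to 77.0% of reads and were left out. Levels are counts per 1000000 counts of the library total (CPM). Because RNA was amplified from little input without molecular identifiers, the limit for 0 counts (3 counts) covers counting error only.

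Tests used edgeR 4.0.16 in R 4.3.3 (filtering by group, TMM, quasi-likelihood test, Benjamini-Hochberg over all genes tested, threshold 0.05). Each age had 1 fit for genotype and cell type, and 4 and 6 weeks had a joint fit for the comparison of ages. In the E2 experiment, E2 and strain were fitted within each cell type, and cell types over all 12 libraries. DESeq2 1.42.0 and other alternatives are given in the closing section. The step was tested on simulated data. Of each gene list at most 3 members with the largest change among those called were named. The members and gene lists were chosen with earlier results of these data known. At 9 weeks, same-numbered libraries of a genotype deviated together (24 pairs, r 0.261 to 0.803), so numbers pair cell types. With 2 libraries per group both numbers must give the same r, so each value of r stands for 2 of these pairs. At 4 and 6 weeks and in the E2 experiment the titles name the animal (2 numbers in each BN title). Of 28 pairs of replicates, 0 were identical.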

Additional observations from a re-analysis of the deposited data

Results flagged for a closer look

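In groups of 4 to 10 libraries, 4 of 44 combinations of group and gene had a library far from the others. The rule flags about 1 in 20 among independent, normally distributed values. Some of these groups share libraries or mix genotypes, and CPM were taken without logs, so that rate need not apply here. *Id4* was at 63.0 CPM in the KO Cd49b+ replicate 2, with the next KO LP library at 11.3. *Id1* was at 71.1 CPM in the WT basal replicate 2 of 9 weeks, with the next at 47.3. *Id1* was at 163 CPM in the KO basal replicate 1 of 4 weeks, with the next at 52.3. *Id4* was at 106 CPM in the WT luminal replicate 1 of 4 weeks, with the next at 54.7.

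The KO against WT value of *Id2* had opposite signs between ages, with every KO library on one side of every WT library: 1.697 on the log2 scale in luminal cells of 6 weeks, and at 9 weeks -0.859 (LP), -0.558 (basal) and -1.455 (mature luminal). For *Id4* the values were 1.64 in luminal cells of 6 weeks, and -0.664 in basal and -0.945 in mature luminal cells of 9 weeks. The groups did not overlap for 49% of all genes in luminal cells of 6 weeks and, at 9 weeks, for 17.6% (LP), 41.2% (basal) and 30.2% (mature luminal). The difference between ages was not tested. The library of the *Id4* value of 106 CPM came from the only rat labelled 4 weeks whose title carries 3.4.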

How the results depend on the processing

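Alternatives were other size factors (RLE), library totals, no filter, a filter of 10 counts in every library, DESeq2, the compared libraries alone, 4 and 6 weeks in 1 fit, a replicate block, and leaving out each library; causes of the changes below were not tested. For genotype in LP, the number of *Id* genes called was 1 (*Id2*) with library totals, 1 with DESeq2 and 1 with the replicate block, and 0 to 2 on leaving out libraries; in mature luminal cells it was 1 with DESeq2 and 1 with the block. Same-numbered libraries of the 2 genotypes did not deviate together at 9 weeks (8 pairs, each r standing for 2 of them, r -0.301 to 0.0014). The block thus pairs nothing there, and it called 671 (LP), 14 (basal) and 42 genes (mature luminal). With crossed numbers, an alternative chosen after seeing the data, the block called 1284, 77 and 132. LP against mature luminal cells gave 2 with the block and 0 to 1 without a library. For genotype in luminal cells of 6 weeks the number was 2 with DESeq2, 1 with both ages in 1 fit, and 0 to 2 without a library. Basal against luminal cells of 6 weeks gave 2 with library totals, no filter, the filter of 10 counts or the block, 3 with DESeq2, and 1 to 2 without a library. The comparison of 6 with 4 weeks gave 1 in WT basal cells with RLE, library totals, no filter or the filter of 10 counts, 3 with DESeq2 and 0 to 3 without a library, and in WT luminal cells 2 with DESeq2, 2 with the compared libraries alone and 0 to 1 without a library. In the E2 experiment DESeq2 called 1 between cell types. At 4 weeks the basal against luminal call of *Id2* was lost with RLE (adjusted p = 0.053) and the filter of 10 counts (0.0685).

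Values near 0 changed sign. For genotype in basal cells of 9 weeks, *Id3* was -0.193 with library totals, -0.014 with the compared libraries alone and -0.026 with the crossed block, and *Id1* 0.006 with the replicate block. In mature luminal cells *Id3* was -0.052 with the block. *Id1* between basal and luminal cells was 0.035 at 4 weeks with the filter of 10 counts, and in the E2 experiment -0.032 with RLE and with DESeq2, -0.017 with library totals and -0.064 with the filter. *Id4* for genotype in basal cells of 6 weeks was 0.001 with library totals.

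Leaving out 1 library gave these ranges for values that changed sign. At 9 weeks they were -0.422 to 0.31 (*Id1*) and -0.257 to 0.427 (*Id3*) for genotype in basal cells, -0.871 to 0.763 (*Id3*) for genotype in mature luminal cells, and -0.566 to 0.296 (*Id1*) for basal against mature luminal cells. For genotype at 4 weeks they were -0.432 to 2.754 (*Id1*), -0.599 to 0.937 (*Id2*), -0.277 to 1.606 (*Id3*) and -0.073 to 0.601 (*Id4*) in basal cells, all 4 negative without KO replicate 1, and -0.148 to 0.885 (*Id1*), -0.288 to 1.063 (*Id3*) and -0.638 to 0.212 (*Id4*) in luminal cells. *Id1* between cell types ran from -1.18 to 0.413 at 4 weeks and from -0.541 to 1.052 in the E2 experiment. For genotype in basal cells of 6 weeks the ranges were -0.014 to 1.137 (*Id2*) and -0.353 to 0.251 (*Id4*).

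Counts over all genes moved more. For genotype in LP, 436 became 1096 with DESeq2, 5 with PNA+ and Cd49b+ libraries summed, 1 with PNA+ and 0 with Cd49b+ libraries alone, and 157 to 1209 without a library. For genotype at 9 weeks DESeq2 called 168 genes in basal and 164 in mature luminal cells, and the compared libraries alone 1 and 0. For genotype at 6 weeks, both ages in 1 fit called 217 genes in basal and 1103 in luminal cells. The luminal count was 0 to 2269 without a library. DESeq2 called 1929 genes between cell types at 6 weeks, 2640 and 1646 between ages in WT basal and luminal cells, and 1806 between cell types in the E2 experiment. The filter of 10 counts gave 2631 between cell types at 4 weeks.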
